A study of Mus musculus with 15 samples.

Results

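STING and the genes of cytosolic nucleic acid sensing were followed across sorted intestinal epithelial cells of tumor-bearing mice. The group is 8 genes of the 27179 in the deposited count table, taken by gene symbol: Sting1, Cgas, Trex1, Ifih1, Zbp1, Tbk1, Irf3 and Irf7. Sting1 was brought up by its own values, because it was among the most increased genes of tumor over normal cells in the Lrig1-low fraction. That contrast is therefore given for every gene of the group as a description with no test, and the other 7 genes were added for their place in the pathway. The tested contrasts are tumor over normal cells in the Lrig1-high fraction, which shares no library with the contrast that brought up Sting1, Lrig1-high over Lrig1-low cells in each tissue, and the difference of the tumor effect between the fractions. The last 3 draw on Lrig1-low libraries that chose Sting1, so for Sting1 they too are descriptions with no test.

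Cells detect DNA and RNA in the cytosol as a sign of infection or of damage to their own nuclei and mitochondria. DNA binds the enzyme cGAS (gene Cgas), which makes the cyclic dinucleotide cGAMP; this messenger binds STING (gene Sting1) on the endoplasmic reticulum, and STING moves to the Golgi and recruits the kinase TBK1. TBK1 phosphorylates the transcription factor IRF3, which turns on type I interferon genes, and interferon in turn raises IRF7 and a broad set of interferon-stimulated genes. The nuclease TREX1 removes cytosolic DNA, MDA5 (gene Ifih1) senses long double-stranded RNA and signals through MAVS to the same kinase, and ZBP1 binds Z-form nucleic acids and triggers necroptosis and other forms of cell death. In the intestine the pathway is known from immune and stromal cells as well as from the epithelium.

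All groups came from mice that carry both the Lrig1-eGFP-IRES-CreERT2 allele, a fluorescent reporter at the locus of the stem and progenitor cell gene Lrig1, and the APCmin allele, which gives intestinal tumors. Epithelium was released with EDTA, dissociated with TryplE and dispase and sorted as EpCam+ cells without CD45 or CD31, and the eGFP signal split it into fractions. The groups were Lrig1-high cells of colonic tumors (3 libraries), Lrig1-high cells of normal colonic epithelium (4), Lrig1-low cells of colonic tumors (4, of which 3 were used) and Lrig1-low cells of normal colonic epithelium (4). Libraries carry the numbers S01 to S15 in the labels, which name no animal, age or pool. The p-values therefore rest on the variation among the libraries, and part of that may be technical.

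The 14 libraries used held 9508505 to 17296536 counts, and S15, a tumor Lrig1-low library with 357 counts and none on the 8 genes, was left out. S12 (tumor Lrig1-high) had the most mitochondrial ribosomal RNA, 42.8% of its counts against 12.9% to 27.1% in the others, and the fewest genes with a count, 11995, followed by S08 of the same group with 12900. Lrig1 RNA went against the sort label in S07, S08, S09 and S10, so results are also given without these 4, a set that was chosen on these data. Epcam was at 605 to 1509 CPM (counts scaled to library size with TMM factors), Pecam1, which encodes CD31, at 1.85 CPM or less, and Ptprc, which encodes CD45, reached 46.1 CPM in S08 but no more than 11.2 CPM in any other library. The labels say colon, but 12 markers of small intestine had per-library medians of 90.8 to 388 CPM, while the medians of 7 colon markers reached 21.5 CPM at most. In such bulk libraries fewer cells that express a gene and less RNA per cell cannot be told apart.

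All 8 genes passed the filter on low counts, and they spanned a wide range of levels. Per length, in median RPKM (CPM per kilobase of exon) over the 14 libraries, the order was Tbk1 at 21.8, Irf3 at 14.02, Ifih1 at 6.80, Irf7 at 3.84, Trex1 at 2.74, Zbp1 at 2.71, Cgas at 1.86 and Sting1 at 1.81. The ranges over libraries of all neighbours in this order overlapped, so the order of the lower 5 genes is not fixed by these data. The place of Sting1 depends on the tissue. In tumor Lrig1-high libraries Sting1 was at 6.27 to 13.7 RPKM and Ifih1 at 3.23 to 8.05 RPKM. Sting1 was above Ifih1 in S08 and S12, and just below it in S04, at 6.27 against 6.44 RPKM. In normal Lrig1-high libraries Sting1 stayed at 0.776 to 2.05 RPKM.

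**Figure D1:**
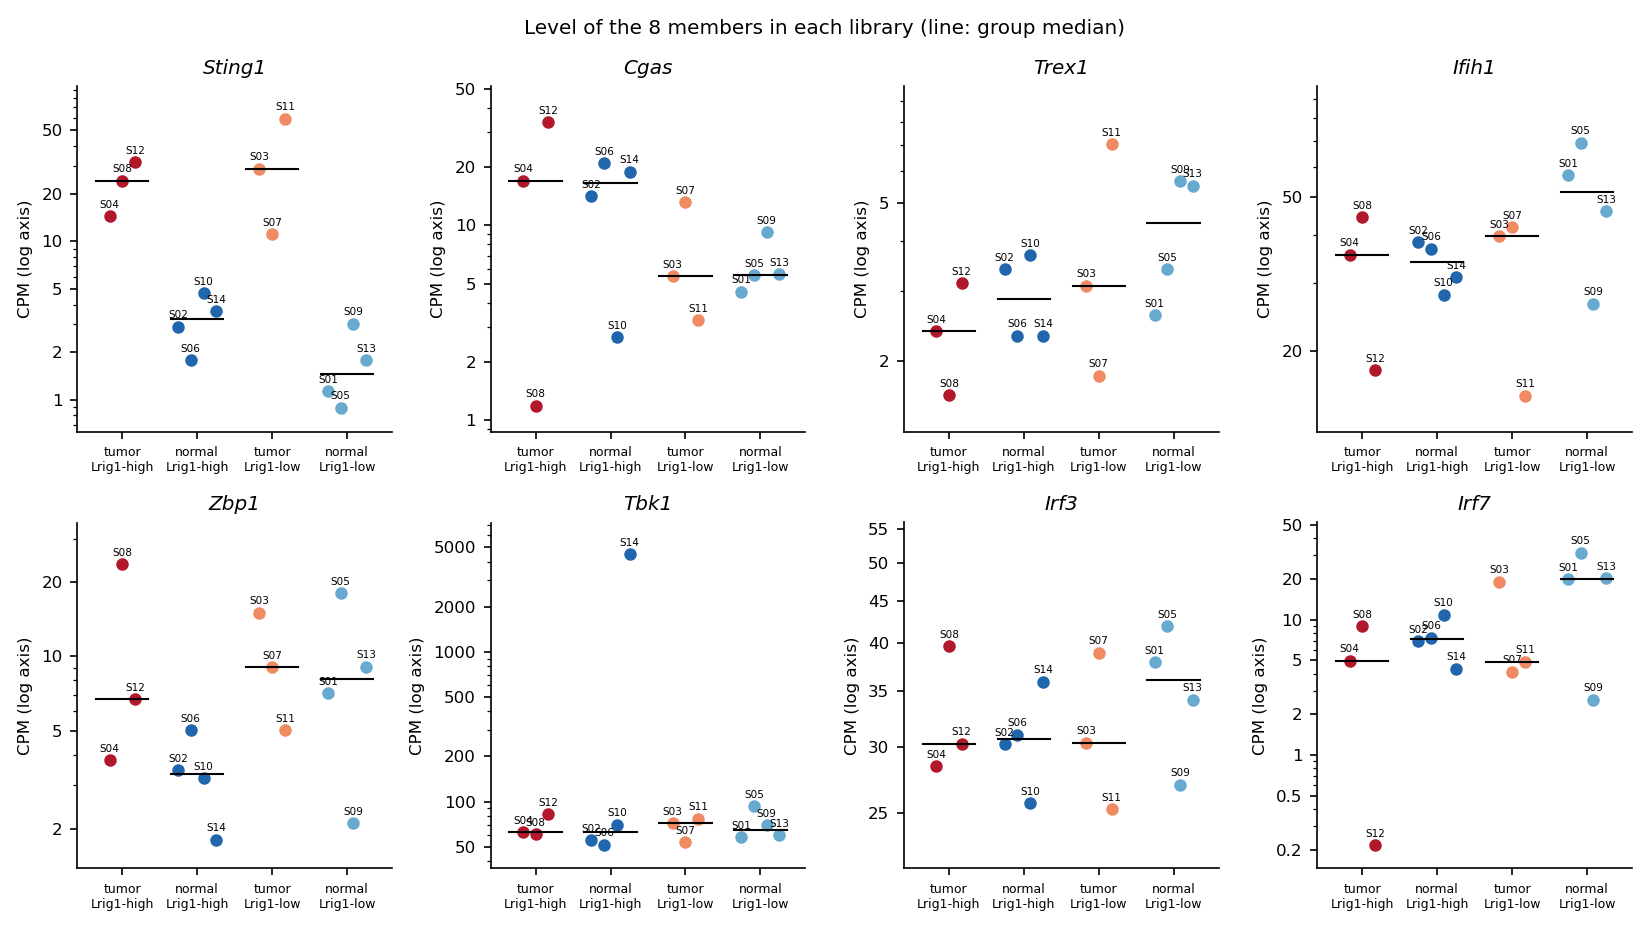
Each point is the CPM (log axis) of 1 of the 8 genes in 1 library, in the 4 groups, with a line at the group median and the library number beside it. Sting1 separates tumor from normal libraries in both fractions, Tbk1 is at 4485 CPM in S14 alone, and the other genes overlap between tumor and normal libraries.

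Sting1 (gene 72512, mm10 chr18:35733678-35740554, minus strand, 8 exons) had more RNA in every tumor library than in any normal library, in both fractions. In the Lrig1-high fraction it was at 14.4 CPM in S04, 24.1 in S08 and 31.6 in S12 of the tumor libraries, against 2.90 CPM in S02, 1.79 in S06, 4.73 in S10 and 3.62 in S14 of the normal libraries. The lowest tumor library was above the highest normal one. The means were 23.4 ± 8.59 CPM in tumor (SD, n = 3) and 3.26 ± 1.24 CPM in normal libraries (SD, n = 4). In edgeR's quasi-likelihood test the log2 fold change was 2.84 ± 0.57 (SE), a fold of 7.14, with an unadjusted p = 0.000233 and an adjusted p = 0.304. This was the 8th smallest p of 13883 genes, and edgeR called no gene at an adjusted p under 0.05 in this comparison, so Sting1 did not pass the test.

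DESeq2 gave 2.87 ± 0.58 with an adjusted p = 0.00199 and called 114 genes (0.821%), and limma-voom with sample weights gave 2.72 ± 0.60 with an adjusted p = 0.176. Without S04, the tumor Lrig1-high library with the least Sting1, edgeR gave 3.09 ± 0.61 with an adjusted p = 0.0205, and 5.59% of all genes were called in that fit. Without S07, S08, S09 and S10 the value was 3.07 ± 0.51 with an adjusted p = 0.0861, and 0.0858% of all genes were called. That fit held only S04 and S12 as tumor and S02, S06 and S14 as normal Lrig1-high libraries. Leaving out each library in turn kept the log2 fold change between 2.53 and 3.09, with adjusted p-values of 0.0205 to 0.618. Sting1 was 1 of 468 genes (3.37%) whose tumor Lrig1-high libraries all lay above all normal ones.

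In the Lrig1-low fraction, whose values chose Sting1, it was at 28.8 CPM in S03, 11.1 in S07 and 59.5 in S11 of the tumor libraries, against 1.14 CPM in S01, 0.895 in S05, 3.04 in S09 and 1.79 in S13 of the normal libraries. The normal libraries hold only 10 to 46 counts each. The description is a log2 fold change of 4.25 ± 0.61 (SE), a fold of 19.1. Sting1 is 1 of 43 genes (0.31%) that edgeR calls higher there. It is also 1 of the 9.95% of genes whose tumor libraries all lie above all normal ones. Both shares come from the values that chose Sting1, so they only describe that choice and are no test of Sting1. As a description, the tumor effect in Lrig1-high minus that in Lrig1-low cells was -1.42 ± 0.80 (SE), and -0.69 without S11. Of the other 7 genes none was near Sting1 in the Lrig1-low fraction: the log2 fold changes of tumor over normal ran from -0.98 ± 0.93 for Irf7 to 0.22 ± 0.84 for Cgas.

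Between the fractions of 1 tissue the Sting1 libraries overlapped, and the values are descriptions. In tumors it averaged 23.4 ± 8.59 CPM in Lrig1-high and 33.1 ± 24.5 CPM in Lrig1-low libraries (SD, n = 3 each), a log2 fold change of -0.50 ± 0.59 (SE), which was 0.23 without S11. In normal epithelium it averaged 3.26 ± 1.24 CPM in Lrig1-high and 1.72 ± 0.959 CPM in Lrig1-low libraries (SD, n = 4 each), a log2 fold change of 0.91 ± 0.54 (SE).

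STING is abundant in endothelial cells and macrophages, so the markers of those cells are given beside it. The 13 endothelial markers summed to 10.9 to 59.5 CPM in tumor Lrig1-high and 7.57 to 47.1 CPM in normal Lrig1-high libraries, and to 24.1 to 223 CPM in tumor Lrig1-low against 4.04 to 10.2 CPM in normal Lrig1-low libraries. The sum was highest in S11, the library with the most Sting1, where Cdh5 gave 155 CPM, Flt1 23.8, Vwf 21.4 and Tek 14.6 CPM. Among normal libraries it was highest in S10, at 47.1 CPM, which also had the most Sting1 of them, 4.73 CPM. The defining endothelial genes did not go together. Cdh5, which encodes VE-cadherin, was at 2.62, 24.4 and 26.6 CPM in S04, S08 and S12 of the tumor Lrig1-high libraries, against 30.2 CPM in S10 and 0 in S02, S06 and S14 of the normal ones, and at 8.796 to 155 CPM in tumor Lrig1-low against 3.24 CPM or less in normal Lrig1-low libraries. Pecam1 was at 1.85 CPM or less and Kdr at 0.222 CPM or less, with Cldn5 and Emcn at 0 counts in all 14 libraries. The 24 leukocyte markers summed to 14.9 to 57.3 CPM in tumor Lrig1-high against 13.97 to 23.1 CPM in normal Lrig1-high libraries, with 15 to 20 of the 24 at 0 in the tumor and 12 to 14 at 0 in the normal libraries, and the highest sum in S08. Of its macrophage and monocyte genes, Csf1r was at 0.282 CPM or less, Adgre1 at 0.145 or less and Cd68 at 2.52 or less, while Itgam reached 15.75 CPM (S05) and Cd14 15.6 CPM (S07). Cd14 was at 10.1, 0 and 11.4 CPM in S04, S08 and S12 of the tumor Lrig1-high libraries, against 1.82 to 9.60 CPM in normal Lrig1-high libraries, and at 6.06 to 15.6 CPM in tumor Lrig1-low against 0.726 to 4.65 CPM in normal Lrig1-low libraries. The 15 fibroblast markers summed to 17.98 to 23.7 CPM in tumor Lrig1-high against 13.97 to 28.4 CPM in normal Lrig1-high libraries, and to 12.6 to 129 CPM in tumor Lrig1-low against 15.8 to 19.9 CPM in normal Lrig1-low libraries, again highest in S11. Most of the S11 sum was Vim, at 95.2 CPM, and Pdgfra, at 26.1 CPM. Col1a1, Col1a2, Col3a1 and Dcn were at 0.858 CPM or less in all 14 libraries, and Lum was at 0. The part of other cells in the Sting1 difference was not tested.

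The 5 genes whose levels were most like those of Sting1 over the 14 libraries, among 8693 genes with a mean of at least 10 CPM, were Atp11a (Pearson r = 0.969 of log2(CPM + 1)), Foxa1 (0.969), Nfe2l3 (0.966), Stox2 (0.960) and Fn1 (0.959). Atp11a encodes a phospholipid flippase, Foxa1 a pioneer transcription factor of endoderm, Nfe2l3 a transcription factor of the CNC family and Fn1 fibronectin. They were chosen for this likeness and share the libraries, so the values are a description. Foxa1 was at 59.7 to 79.4 CPM in tumor Lrig1-high libraries, against 29.5 to 36.9 CPM in normal Lrig1-high libraries, and at 64.1 to 111 CPM in tumor Lrig1-low against 18.3 to 26.5 CPM in normal Lrig1-low libraries. Nfe2l3 was at 6.98 to 51.9 CPM in tumor Lrig1-high against 0.694 to 5.64 CPM in normal Lrig1-high libraries. None of the other 7 genes of the sensing group was close: the r of Sting1 with them ran from -0.62 for Ifih1 to 0.20 for Zbp1.

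**Figure D2:**
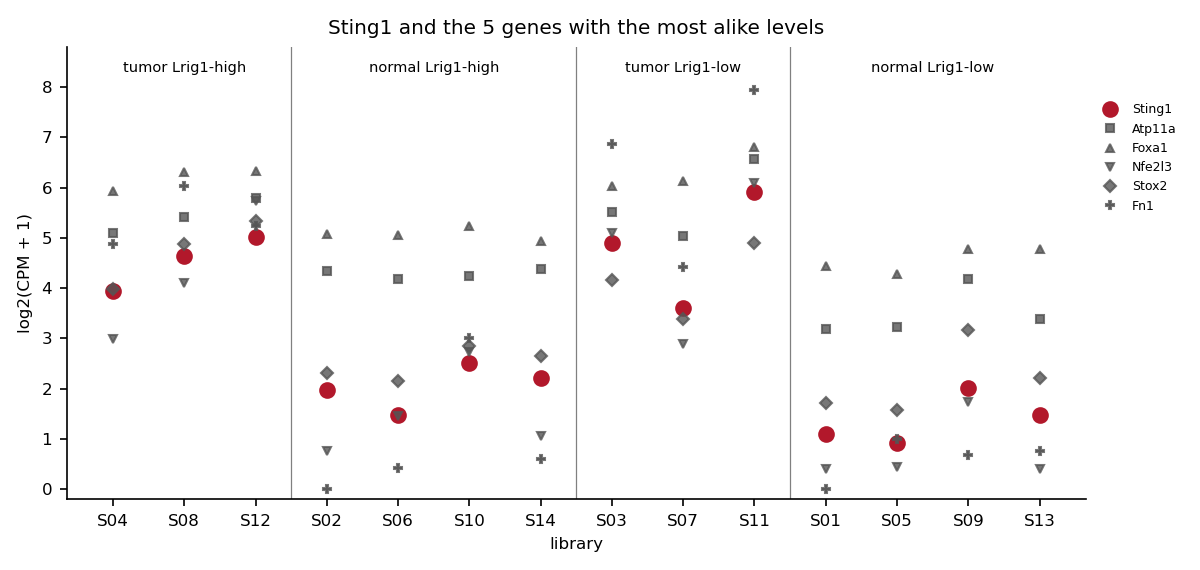
Levels in log2(CPM + 1) (vertical axis) of Sting1, in red, and of the 5 most alike genes, in grey, in the 14 libraries grouped by tissue and fraction. All 6 genes lie higher in the tumor than in the normal libraries of the same fraction, with Sting1 between 14.4 and 31.6 CPM in tumor Lrig1-high and between 1.79 and 4.73 CPM in normal Lrig1-high libraries.

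Cgas, the DNA sensor upstream of STING (gene 214763, chr9:78430518-78443147), did not follow Sting1. It was at 16.97 CPM in S04, 1.19 in S08 and 33.7 in S12 of the tumor Lrig1-high libraries, against 14.1 CPM in S02, 20.8 in S06, 2.67 in S10 and 18.8 in S14 of the normal ones. Tumor and normal libraries overlapped fully, and the log2 fold change was 0.29 ± 0.84 (edgeR adjusted p = 0.895). In tumor Lrig1-low libraries it was at 5.49, 13.1 and 3.26 CPM in S03, S07 and S11, against 4.57, 5.55, 9.25 and 5.60 CPM in S01, S05, S09 and S13 of normal epithelium, and these overlapped as well.

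Between the fractions, Cgas differed in Lrig1-high over Lrig1-low cells by 1.24 ± 0.91 in tumors (edgeR adjusted p = 0.747) and by 1.17 ± 0.79 in normal epithelium (edgeR adjusted p = 1), and neither passed the test. Without S07, S08, S09 and S10 the value in normal epithelium was 1.79 ± 0.38 (edgeR adjusted p = 0.0294), past the threshold together with 5.69% of all genes, and limma-voom with sample weights on all 14 libraries gave 1.51 ± 0.45 (adjusted p = 0.024), where 30% of all genes were called. S08 and S10, labelled Lrig1-high, had the lowest Cgas of all 14 libraries, on 13 and 44 counts, and also low Lrig1, at 55.7 and 36.4 CPM. S07 and S09, labelled Lrig1-low, had the highest Cgas of their groups, 13.1 and 9.25 CPM, and high Lrig1 there, at 142 and 85.5 CPM. Over the 14 libraries the Pearson r of Cgas with Lrig1 was 0.77 and Spearman's rho 0.76, against r at least as high in 4.39% of all tested genes, and r was 0.72 without S04 and S14, the libraries farthest from the median of Lrig1. The r was 0.98 in the 8 normal and 0.62 in the 6 tumor libraries. For Sting1 it was 0.23 in the normal and -0.90 in the tumor libraries. These correlations were looked at after the values were seen, and the libraries left out above were picked by Lrig1, so they describe the libraries and carry no test.

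**Figure D3:**
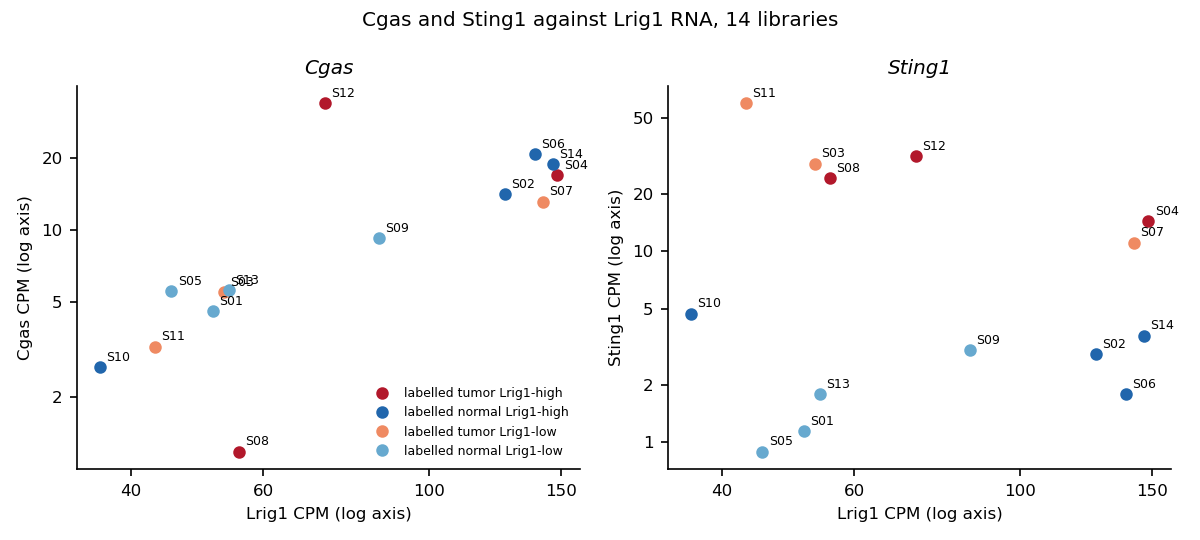
Cgas (left) and Sting1 (right) in CPM against Lrig1 in CPM, all on log axes, 1 point per library with the colour of its labelled group. Cgas is low in S08 and S10, which have 55.7 and 36.4 CPM of Lrig1 under a Lrig1-high label, while Sting1 divides the libraries by tissue whatever their Lrig1.

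Trex1, the nuclease that degrades cytosolic DNA (gene 22040, chr9:109057932-109059723), was low throughout, with 18 to 95 counts per library. It was at 2.38, 1.64 and 3.14 CPM in S04, S08 and S12 of the tumor Lrig1-high libraries, against 3.41, 2.32, 3.70 and 2.32 CPM in S02, S06, S10 and S14 of the normal ones, with partial overlap (log2 fold change -0.30 ± 0.59, edgeR adjusted p = 0.841). In tumor Lrig1-low libraries it was at 1.84 to 7.04 CPM, against 2.61 to 5.68 CPM in normal Lrig1-low libraries. The differences between fractions, -0.74 ± 0.63 in tumors (edgeR adjusted p = 0.782) and -0.55 ± 0.54 in normal epithelium (edgeR adjusted p = 1), did not pass the test either.

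Tbk1 (gene 56480, chr10:121546455-121586794), the kinase that STING and MAVS share, was even except in 1 library. In the normal Lrig1-high library S14 it had 4485 CPM, on 61951 counts, or 0.358% of that library and rank 32 among its tested genes. The other 13 libraries lay between 51.5 and 93.2 CPM, at 66.6 ± 12.3 CPM (SD). The fit of all 14 libraries gave -4.09 ± 1.41 for tumor over normal Lrig1-high cells (edgeR adjusted p = 0.355) and 4.06 ± 1.248 for Lrig1-high over Lrig1-low cells of normal epithelium (edgeR adjusted p = 1). Both rest on S14: without it they were 0.19 and -0.23. Tumor Lrig1-high libraries had 62.7, 60.4 and 82.7 CPM in S04, S08 and S12, against 55.2, 51.5 and 70.1 CPM in S02, S06 and S10 of normal epithelium.

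Irf3 (gene 54131, chr7:44997648-45002848), the factor that TBK1 phosphorylates, was at 25.3 to 42.0 CPM over the 14 libraries, the smallest ratio of highest to lowest library among the 8 genes. It was at 28.5, 39.7 and 30.3 CPM in S04, S08 and S12 of the tumor Lrig1-high libraries, against 30.2, 31.0, 25.6 and 36.0 CPM in S02, S06, S10 and S14 of the normal ones. The log2 fold change was 0.09 ± 0.23 for tumor over normal in Lrig1-high cells (edgeR adjusted p = 0.874), 0.06 ± 0.25 for Lrig1-high over Lrig1-low cells of tumors (edgeR adjusted p = 0.962) and -0.20 ± 0.21 for those of normal epithelium (edgeR adjusted p = 1).

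**Figure D4:**
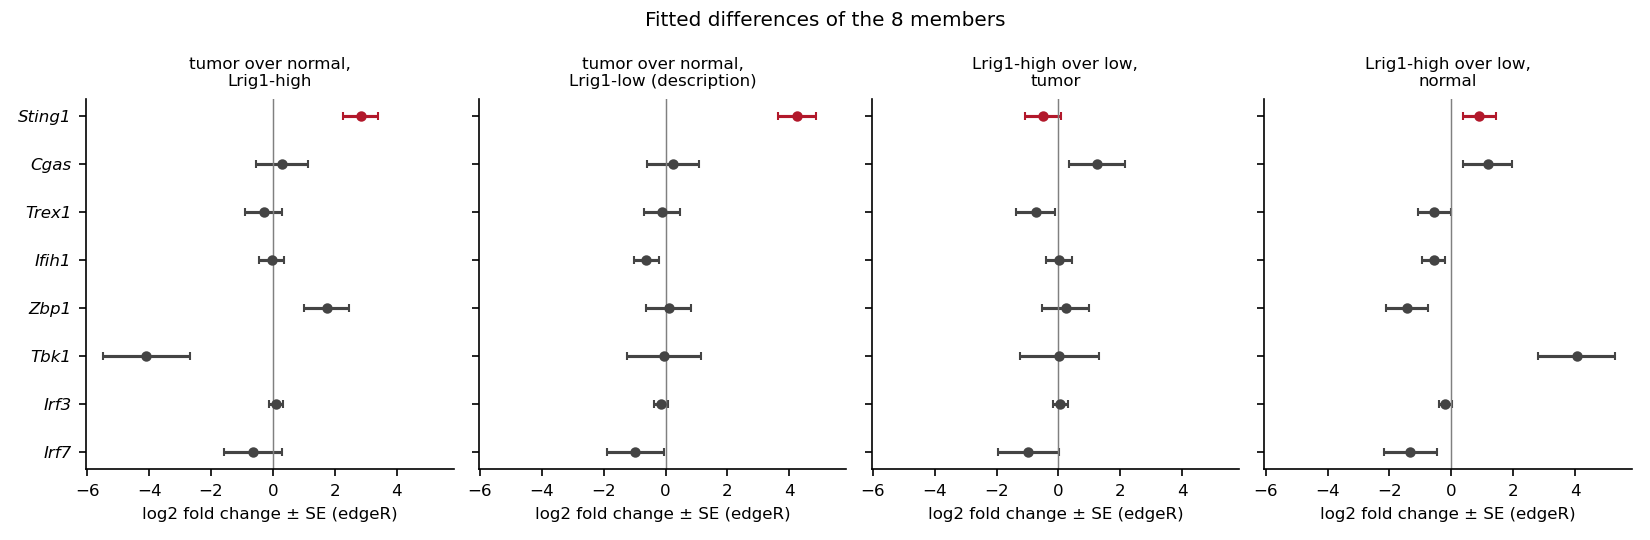
Log2 fold changes (horizontal axis, edgeR, bars are standard errors) of the 8 genes in 4 comparisons, Sting1 in red. Tumor over normal in Lrig1-low cells chose Sting1 and is a description; the wide Tbk1 values of -4.09 and 4.06 rest on S14. Sting1 is a description in both sort panels as well; no gene passed the test in the first panel and no other gene in those 2.

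Irf7, Ifih1 and Zbp1 are themselves raised by interferon, and they varied between libraries in another way than Sting1. Irf7, the interferon-induced amplifier of the response (gene 54123, chr7:141263183-141266424), was at 4.99, 8.94 and 0.216 CPM in S04, S08 and S12 of the tumor Lrig1-high libraries, against 6.94, 7.35, 10.9 and 4.34 CPM in S02, S06, S10 and S14 of the normal ones. The S12 value rests on 2 counts. In tumor Lrig1-low libraries it was at 19.01, 4.14 and 4.89 CPM in S03, S07 and S11, against 19.8, 31.2, 2.58 and 20.2 CPM in S01, S05, S09 and S13 of normal epithelium. S01, S05 and S13 of normal epithelium were thus the highest of all 14 libraries, and S09, the normal Lrig1-low library with the most Lrig1, was among the lowest. The log2 fold changes of -0.64 ± 0.93 for tumor over normal in Lrig1-high cells (edgeR adjusted p = 0.781) and -1.32 ± 0.85 for Lrig1-high over Lrig1-low cells of normal epithelium (edgeR adjusted p = 1) did not pass the test.

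Ifih1 (gene 71586, chr2:62595793-62646255), the RNA sensor MDA5, was at 35.5, 44.4 and 17.8 CPM in S04, S08 and S12 of the tumor Lrig1-high libraries, against 38.2, 36.8, 28.0 and 31.1 CPM in S02, S06, S10 and S14 of the normal ones, a log2 fold change of -0.04 ± 0.40 (edgeR adjusted p = 0.972). In tumor Lrig1-low libraries it was at 39.7, 41.8 and 15.3 CPM in S03, S07 and S11, against 57.1, 69.3, 26.5 and 46.1 CPM in S01, S05, S09 and S13 of normal epithelium. S11, highest of all in Sting1, was lowest of all in Ifih1. Lrig1-high over Lrig1-low cells differed by 0.01 ± 0.42 in tumors (edgeR adjusted p = 0.995) and by -0.57 ± 0.37 in normal epithelium (edgeR adjusted p = 1).

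Zbp1 (gene 58203, chr2:173206612-173218922), the Z-nucleic acid sensor, was at 3.81, 23.6 and 6.70 CPM in S04, S08 and S12 of the tumor Lrig1-high libraries, against 3.47, 5.03, 3.21 and 1.81 CPM in S02, S06, S10 and S14 of the normal ones. S08 set most of the gap, and S04 lay within the normal range. The log2 fold change was 1.75 ± 0.73 (edgeR unadjusted p = 0.0314, adjusted p = 0.395), and 0.63 without S08, the library that also had the most Ptprc. In tumor Lrig1-low libraries it was at 15.1, 9.03 and 5.04 CPM in S03, S07 and S11, against 7.09, 18.1, 2.11 and 9.10 CPM in S01, S05, S09 and S13 of normal epithelium, with full overlap. Lrig1-high over Lrig1-low cells of normal epithelium differed by -1.42 ± 0.69 (edgeR adjusted p = 1), and those of tumors by 0.23 ± 0.77 (edgeR adjusted p = 0.953).

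The interferon-stimulated genes were summarised as the mean log2(CPM + 1) of a list of 61. This level was 2.34 to 3.04 in tumor Lrig1-high against 2.30 to 2.62 in normal Lrig1-high libraries, and 2.69 to 3.12 in tumor Lrig1-low against 2.22 to 3.36 in normal Lrig1-low libraries. It was highest in S05, S03 and S08 and lowest in S09, S14 and S12, and 26 of the 61 genes had no count in S12. Over the 14 libraries Zbp1 had a Pearson r of 0.86 with this level (rho 0.87), Irf7 0.76 (rho 0.76) and Ifih1 0.61 (rho 0.71), against r at least as high in 0.13%, 0.984% and 5.05% of all tested genes outside the list. Without S03 and S05, the libraries farthest from the median, r was 0.81, 0.63 and 0.45, so those of Irf7 and Ifih1 rest in part on those libraries. Sting1 had an r of 0.04 (rho -0.06) and Cgas one of -0.60 (rho -0.64), and without S03 and S05 these r were 0.21 and -0.70. Without S12, S05 and S09 the r was 0.51 for Sting1, 0.25 for Ifih1, 0.55 for Irf7 and 0.92 for Zbp1. The order of Sting1 and Ifih1 thus depends on the libraries used. These are descriptions over libraries that share depth and RNA quality, and S12 has the fewest genes detected.

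**Figure D5:**
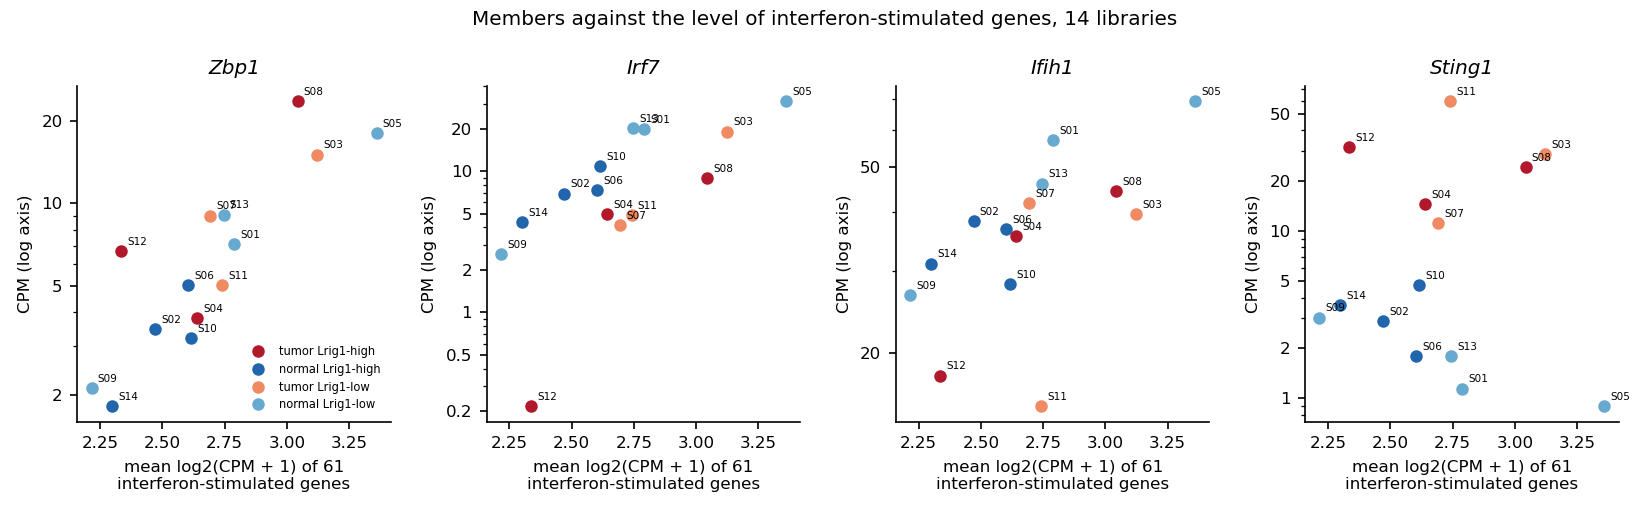
Zbp1, Irf7, Ifih1 and Sting1 in CPM (log axis) against the mean log2(CPM + 1) of 61 interferon-stimulated genes, 1 point per library. Zbp1 and Irf7 tend to be higher at a higher list level, with scatter in Irf7. Irf7 is at 0.216 CPM in S12 and at 4.14 to 4.99 CPM in S04, S07 and S11. S02 and S06, at lower list levels than S04, S07 and S11, have 6.94 and 7.35 CPM of Irf7. In Sting1 the tumor libraries stand above the normal ones at every list level.

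The upstream sequences of the interferon-linked genes were read from RefSeq promoter entries of the mouse build GRCm38.p6 to see whether they hold the site that IRF proteins bind. The letters searched were GAAA, any 2 bases and GAAA again, on both strands of the 250 bases before the start. No entry was found for Sting1 or Zbp1, so their upstream sequences were not searched. Entries were found for Cgas, Tbk1, Irf3, Irf7, Trex1 (a pair) and Ifih1, and none of these 7 windows held the letters. The STAT letters TTCNNNGAA were absent from all 7 as well, against 7.02% of 32851 promoters that hold them. Of all genes with an entry 3.46% held the IRF letters, and of the interferon-stimulated list 19 of the 48 with an entry did (39.6%). The windows of Irf7 and Ifih1, whose levels correlated with that list, are shown beside that of Ifitm2, the gene of the list with the highest mean level among those with a match. Ifitm2 encodes a membrane protein that blocks the entry of viruses. Its own RNA was lowest in S05, at 10.2 CPM, where the list level was highest. It was highest in S12, at 182 CPM, where the list level was among the lowest. All windows are written 5′ to 3′ on the strand of the gene, and capitals mark the match.
Irf7, chr7:141266425-141266674, minus strand: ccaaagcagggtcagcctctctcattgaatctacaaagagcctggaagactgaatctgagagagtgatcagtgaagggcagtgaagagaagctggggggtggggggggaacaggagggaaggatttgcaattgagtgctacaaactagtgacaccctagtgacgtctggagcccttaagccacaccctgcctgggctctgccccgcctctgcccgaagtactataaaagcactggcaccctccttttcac
Ifih1, chr2:62646256-62646505, minus strand: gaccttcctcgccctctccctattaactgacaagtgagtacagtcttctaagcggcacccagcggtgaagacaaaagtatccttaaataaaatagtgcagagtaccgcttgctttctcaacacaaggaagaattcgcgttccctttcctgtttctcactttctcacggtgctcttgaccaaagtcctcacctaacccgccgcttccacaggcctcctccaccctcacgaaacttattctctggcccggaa
Ifitm2, chr7:140955962-140956211, minus strand: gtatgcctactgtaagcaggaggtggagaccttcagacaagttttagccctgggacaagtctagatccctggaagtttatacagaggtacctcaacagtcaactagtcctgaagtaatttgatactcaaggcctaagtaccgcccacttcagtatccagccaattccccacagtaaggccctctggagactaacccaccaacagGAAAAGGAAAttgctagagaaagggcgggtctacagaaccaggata
The match of Ifitm2 begins 46 bases before the start. The absence of these letters says only that they are not in these windows.

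Of the 8 genes edgeR called 0 for tumor over normal Lrig1-high cells, and of the 7 other than Sting1 it called 0 in each of the other 3 tested comparisons, where, as in the first, it called 0 of 13883 genes (0%). For tumor over normal Lrig1-high cells, 2 of the 8 were higher at an unadjusted p under 0.05, Sting1 and Zbp1, and 1 lower, Tbk1, against 7.08% and 4.15% of all genes (11.2% in either direction). DESeq2 called 1 of the 8 there, Sting1, and limma-voom none. The median log2 fold change of the 8 genes was 0.03, against -0.04 over all genes, with 4 of the 8 positive. The libraries of 1 of the 8, Sting1, were separated and higher and those of 0 were separated and lower, where the shares of all genes were 3.37% and 5.02%. At an unadjusted p under 0.05, 1559 genes passed there, DESeq2 called 114 (0.821%) by adjusted p and limma-voom 0 (0%).

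For Lrig1-high over Lrig1-low cells of normal epithelium the median log2 fold change of the 8 genes was -0.38, against 0.01 over all genes. At an unadjusted p under 0.05, 1 of the 7 other than Sting1 was higher, Tbk1, and 0 were lower, against 2.54% and 1.06% of all genes (3.59% in either direction), and Tbk1 rests on S14. The libraries of 0 of the 8 were separated in either direction, against 1.63% higher and 1.21% lower over all genes. In all, 499 genes passed the unadjusted p, DESeq2 called 1 (0.0072%) and limma-voom 4169 (30%). In tumors the median was 0.02 against -0.06, with 0 of the 7 other than Sting1 past the unadjusted p in either direction, against 3.61% higher and 3.9% lower (7.51%, 1042 genes), and 0 separated, against 2.22% higher and 5.24% lower. DESeq2 called 18 genes there (0.13%) and limma-voom 0. In the difference of the tumor effects 0 of the 7 other than Sting1 were higher and 1, Tbk1, was lower at an unadjusted p under 0.05, against 2.93% and 4.26% of all genes (7.2%, 999 genes), and Tbk1 was at 0.29 without S14. DESeq2 called 5 genes there (0.036%) and limma-voom 0.

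Among the genes that carry, recycle or restrain STING, 0 of 18 tested passed in any of the 4 comparisons. Of these, 12 had a positive log2 fold change for tumor over normal Lrig1-high cells (median 0.16, against 47.4% positive and a median of -0.04 over all genes). Copa, a coat protein that returns STING to the endoplasmic reticulum, differed by 0.22 ± 0.21 there (edgeR adjusted p = 0.682), and Surf4, its cargo adaptor, by 0.14 ± 0.24 (edgeR adjusted p = 0.81). Of the other DNA sensors and nucleases 0 of 19 passed, with 8 positive and a median of -0.14. In normal epithelium 15 of these 19 had a positive log2 fold change for Lrig1-high over Lrig1-low cells (median 0.36, against 51.2% positive and a median of 0.01 over all genes). Dhx9, a helicase, was at 234 to 604 CPM over the libraries, and G3bp1, a stress granule protein that helps cGAS bind DNA, at 82.9 to 235 CPM.

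Of 20 RNA sensors and effectors 0 passed, 18 had a negative log2 fold change for Lrig1-high over Lrig1-low cells of normal epithelium (median -0.34), and 14 a positive one for tumor over normal Lrig1-high cells (median 0.18). Without S07, S08, S09 and S10 the first median was -0.62 and the second -0.00054. Trim25, a ubiquitin ligase of RIG-I signalling, differed between the fractions of normal epithelium by -0.27 ± 0.19 (edgeR adjusted p = 1). Of 17 adaptors and kinase partners 0 passed, with 14 positive for tumor over normal Lrig1-high cells (median 0.16). Ddx3x differed by 0.16 ± 0.23 (edgeR adjusted p = 0.773) and Tax1bp1 by 0.16 ± 0.19 (edgeR adjusted p = 0.729). Of the 8 tested genes of the IRF family, Irf3 and Irf7 among them, 0 passed. Irf1, which drives responses to interferon gamma, differed by 0.29 ± 0.32 for tumor over normal Lrig1-high cells (edgeR adjusted p = 0.714).

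Of the ligands, 7 of 9 interferon genes, Ifnb1 and Ifng among them, had 0 counts in all 14 libraries, Ifne reached 0.222 CPM and Ifnk 9.73 CPM in S12. Their receptors were present at unlike levels, with Ifngr1 at 97.9 to 228 CPM and Ifngr2 at 96.1 to 198 CPM for interferon gamma. The type I chains were lower, Ifnar1 at 28.0 to 71.0 CPM and Ifnar2 at 0.324 to 19.3 CPM. Ifnlr1, a chain for interferon lambda, was at 3.76 to 14.4 CPM. Among 14 tested receptor and signalling genes 0 passed in any comparison. Of the 55 tested interferon-stimulated genes 0 passed. For tumor over normal Lrig1-high cells 37 were positive (median 0.28, against -0.04 over all genes), and for Lrig1-high over Lrig1-low cells of normal epithelium 47 were negative (median -0.49, against 0.01). Without S07, S08, S09 and S10 the first median turned sign, to -0.15, and the second was -0.65. For tumor over normal Lrig1-low cells 36 were negative (median -0.31), as a description, while Sting1 was higher there. Dtx3l, a ubiquitin ligase that works with PARP9, was at 51.1 to 156 CPM, and Helz2, a helicase, at 9.73 to 181 CPM, both highest in S05. Of 12 genes of ZBP1-linked cell death 0 passed, and 11 had a negative value for Lrig1-high over Lrig1-low cells of normal epithelium (median -0.30). Pycard, the inflammasome adaptor ASC, differed there by -0.45 ± 0.47 and Casp6, a caspase that assembles with ZBP1, by -0.69 ± 0.39 (edgeR adjusted p = 1 for both). Among all 153 tested genes of these lists outside the group, DESeq2 called 1 for tumor over normal Lrig1-high cells, a share no higher than that over all genes (114 of 13883, 0.821%). It was Nlrx1, a mitochondrial regulator of MAVS signalling, named after its values were seen. It was at 6.74 to 19.4 CPM in tumor Lrig1-high libraries, against 1.92 to 4.49 CPM in normal ones, a log2 fold change of 2.04 ± 0.49 (DESeq2 adjusted p = 0.0131). The lists were drawn up with earlier results of these data known, and their counts are descriptions.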

How the data were processed

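The authors deposited 1 table of raw read counts per gene and library, made with featureCounts 1.5.3 on the reverse strand over mm10 RefSeq exons, per the file headers. The header's command sets no option for pairs, so both ends of a fragment can be counted. Trimmomatic, HISAT2 and Subread are named in the submitters' processing notes, and the library kit (SMARTer Stranded Total RNA-Seq Pico v2) in the labels' protocols. Libraries were grouped by the labels. S15 was left out for its low total (minimum 1000 counts).

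The counts were tested with edgeR 4.0.16 (R 4.3.3, limma 3.58.1): TMM scaling, filterByExpr (13883 genes kept), 1 coefficient per group over 14 libraries, quasi-likelihood tests and Benjamini-Hochberg adjustment over all genes, with a threshold of 0.05. Standard errors were taken as the log2 fold change over the root of the F statistic. CPM uses the TMM-scaled totals, and RPKM the exon length in the deposited table. The scripts were tested on simulated data. DESeq2 1.42.0, limma-voom, DESeq2 size factors, no filter, only the groups compared, S15 kept, and libraries left out were the alternatives. Figures were drawn with matplotlib 3.10.9.

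The members and lists were chosen with earlier results of these data known. Named genes are the 8 members, the 2 genes of highest mean CPM of each list without a call, the 5 genes most like Sting1, the marker genes of the sort, and the highest genes of marker lists that moved with a result. Ifnar1, Ifnar2 and Ifnlr1 were added outside this rule as further receptor chains. Some genes that this rule names are not reported here. At 10 to 78 counts, as for Sting1 in normal libraries, counting error alone is large. The RefSeq promoter entries were matched by gene ID.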

Additional observations from a re-analysis of the deposited data

Results flagged for a closer look

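Tbk1 in the normal Lrig1-high library S14, at 4485 CPM, lay far from the other 3 libraries of its group, at 51.5 to 70.1 CPM. The gap to the nearest library was 0.996 of the group's range, above Dixon's 95% critical value for 4 libraries. Over the 8 genes, 16 groups of 4 libraries were examined, and chance alone passes this value in about 1 of 20; the tumor groups of 3 were not examined. S14 was also the library in which the most genes stood at least 10 times above every other library at 100 CPM or more, 39 of 78 such genes, followed by S13 with 17 and S03 with 10. The part of this pattern in the Tbk1 value was not tested.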

How the results depend on the processing

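Of the 8 genes, 0 were called in each of the 4 comparisons, but DESeq2 called 1 (Sting1) for tumor over normal Lrig1-high cells and also 1 other pathway gene (0.821% of all genes), and leaving out each library in turn gave 0 to 1 of the 8 and 0 to 6 pathway genes, the upper ends without S04 (5.59% of all genes). For the sort in normal epithelium limma-voom called 1 (Cgas) and 55 pathway genes, where it called 30% of all genes, and without S07, S08, S09 and S10 edgeR called 1 (Cgas) and 9 pathway genes, where it called 5.69% of all genes. With 1 library left out, pathway genes were called for the sort in tumors and for the difference of tumor effects only without S04. That fit held S08 and S12 alone as tumor Lrig1-high libraries, which had the fewest genes with a count. The pathway genes called there were at 0.182 CPM or less in both libraries. No call of the 8 genes moved with DESeq2 size factors, without the filter, with only the groups compared, or with S15 kept.

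Some uncalled log2 fold changes turned sign. For tumor over normal Lrig1-high cells limma-voom gave -1.19 for Cgas and 0.069 for Ifih1, and without S07, S08, S09 and S10 the values were -0.12 for Irf3 and 0.061 for Trex1. For the sort in tumors limma-voom gave -0.16 for Tbk1 and -0.63 for Zbp1, and Zbp1 was at -0.90 without those 4. For the difference of tumor effects limma-voom gave -1.22 for Cgas, and Irf7 was at -0.20 without those 4. The cause was not tested. With 1 library left out, tumor over normal Lrig1-high values ran from -0.64 to 0.84 for Cgas, -4.49 to 0.19 for Tbk1, -0.066 to 0.18 for Irf3 and -0.33 to 0.22 for Ifih1; the sort in normal epithelium from -0.23 to 4.46 for Tbk1; the sort in tumors from -0.92 to 0.23 for Sting1, -0.11 to 0.13 for Tbk1, -0.10 to 0.24 for Irf3, -1.81 to 0.10 for Irf7, -0.32 to 0.33 for Ifih1 and -0.89 to 0.70 for Zbp1; and the difference of tumor effects from -0.84 to 0.81 for Cgas, -4.43 to 0.29 for Tbk1, -0.50 to 1.40 for Irf7 and -0.53 to 0.50 for Trex1.

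No paired analysis was possible because the labels give each library a number of its own and state no pairing of libraries. With 3 or 4 libraries a group, Sting1 at 10 to 78 counts in normal libraries and Irf7 at 2 counts in S12 are imprecise.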
